A study of Homo sapiens with 8 samples.

Results

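GATA2 occupancy was examined around 9 genes grouped here as markers of the luminal epithelial cell of the prostate: ACP3, FOLH1, MSMB, AMACR, PSCA, PROM1, KRT8, KRT18 and EPCAM. The grouping is by name and not every member is specific to that cell. PROM1 is also used to mark progenitor-like cells, and AMACR is stained for in prostate cancer. They are 9 of 20037 protein-coding genes in the annotation, and they were chosen by name as surface, secretory and cytoskeletal markers by a rule that uses no measured value, though with earlier results of these data known. A GATA2 peak was assigned to a gene when its summit lay within 50 kb of the gene's RefSeq span (GRCh38, the build of the files), and peaks sharing at least 1 bp across lists were joined into a region. This gave 18 distinct regions, of which KRT8 and KRT18, which overlap on chromosome 12, share 1.

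The peak lists came from chromatin immunoprecipitation and sequencing (ChIP-seq) of the transcription factor GATA2 in VCaP cells, a line established from a human prostate cancer metastasis that is resistant to castration. The JQ1 group was kept without steroids for 72 h and received 1 µM JQ1, a small molecule that displaces BET bromodomain proteins from acetylated histones, for the last 24 h. The untreated group was kept in the same way, was labelled as not treated and, per the labels' protocol, received the solvent DMSO. Each group had 2 replicates with a peak list each, and nothing in the labels says whether replicates were separate cultures, so p-values measure only the spread between these samples. A single cell line grown without steroids stands for the luminal cell here, and no expression was measured, so whether the cells made the 9 proteins could not be checked. A site bound in fewer cells and a site bound less strongly in each cell cannot be told apart in such lists.

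Luminal cells line the ducts of the prostate gland and release their products into seminal fluid. They are told from the underlying basal cells by simple epithelial keratins, by prostate secretory proteins and by a set of surface antigens, several of which are used to image or treat prostate cancer. GATA2 is a zinc-finger factor that binds short sequences with a GATA core, and in prostate cells it is known to work beside the androgen receptor and FOXA1, mostly at enhancers away from gene starts.

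The lists differed in length more by replicate than by treatment, with 4974 peaks in JQ1 replicate 1, 32404 in JQ1 replicate 2, 6902 in untreated replicate 1 and 27373 in untreated replicate 2. The short lists decide most of what follows, because a region counts as recurrent in a group when both of its lists have a peak there. The number of DNA fragments stacked over each summit was recovered from the deposited fold enrichment and p-value, and is given below with the background that the caller expected. This background has a floor in each list, 1.13 in JQ1 replicate 1, 1.56 in JQ1 replicate 2, 1.25 in untreated replicate 1 and 1.96 in untreated replicate 2. A background equal to the floor, as at many regions below, is a value of the list and not a level measured at the site. In untreated replicate 2 the caller had scaled the ChIP pile-up by 0.686, which was undone here, so its fragment numbers are on the scale of its own library. Fragment numbers, folds and ranks describe a peak within its list, and raw values are set side by side between lists without a test.

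No GATA2 peak overlapped the 250 bases before a transcription start of the members that could be checked. The RefSeq promoter table matched 4 of the 9 genes, ACP3, AMACR, KRT8 and PROM1, and 0 of their 7 windows overlapped a peak of any list. Several of these windows belong to PROM1. The share of all promoter windows that overlap a peak was not computed, so the 0 of 7 describes these windows only. The ACP3 window is printed because ACP3 had the summit nearest to a start, 194 bp past it, and the PROM1 window because it precedes the start nearest to the strongest peak of the whole group, 31.7 kb away. They lie at chr3:132317157-132317406 on the plus strand and chr4:16076119-16076368 on the minus strand (GRCh38.p14, RefSeq), each written 5′ to 3′ on the gene's strand, and capitals mark a GATA core (GATA or its complement TATC).
ACP3: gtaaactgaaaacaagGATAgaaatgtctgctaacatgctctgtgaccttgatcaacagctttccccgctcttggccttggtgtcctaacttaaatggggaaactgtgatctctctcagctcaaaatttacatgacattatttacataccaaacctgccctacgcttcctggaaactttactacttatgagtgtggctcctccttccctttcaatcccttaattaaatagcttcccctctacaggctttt
PROM1: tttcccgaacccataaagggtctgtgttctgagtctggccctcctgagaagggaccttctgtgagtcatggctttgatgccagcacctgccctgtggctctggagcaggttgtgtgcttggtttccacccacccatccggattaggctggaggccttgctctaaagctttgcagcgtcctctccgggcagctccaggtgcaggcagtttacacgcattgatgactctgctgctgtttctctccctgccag
The ACP3 window holds 1 such core and the PROM1 window 0, and 39.8% of 22199 promoter windows of protein-coding genes hold at least 1. The longer GATA motif, that is GATAA or GATAG preceded by A or T, searched on both strands, was found in 0 of the 7 windows, against 17.9% of all windows. Such matches describe the letters only.

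All 9 luminal marker genes had a GATA2 peak within 50 kb in at least 1 list, against 62.6% of all protein-coding genes. This rested on JQ1 replicate 2, the longest list, which had a peak at 9 of 9 members (58.2% of all genes). JQ1 replicate 1 had a peak at 3 members (18.2% of all genes), untreated replicate 1 at 4 (25.7%) and untreated replicate 2 at 7 (54.6%). The 2 members without a peak in untreated replicate 2 were KRT8 and KRT18. Every one of the 18 regions was present in JQ1 replicate 2, whereas JQ1 replicate 1 had 3 of them, untreated replicate 1 had 5 and untreated replicate 2 had 12. Over the genome, 21173 of 36122 merged regions were in both replicate 2 lists and 3236 in all 4, against 12 and 3 of the 18 here. The share of all regions held by JQ1 replicate 2 was not computed.

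**Figure D1:**
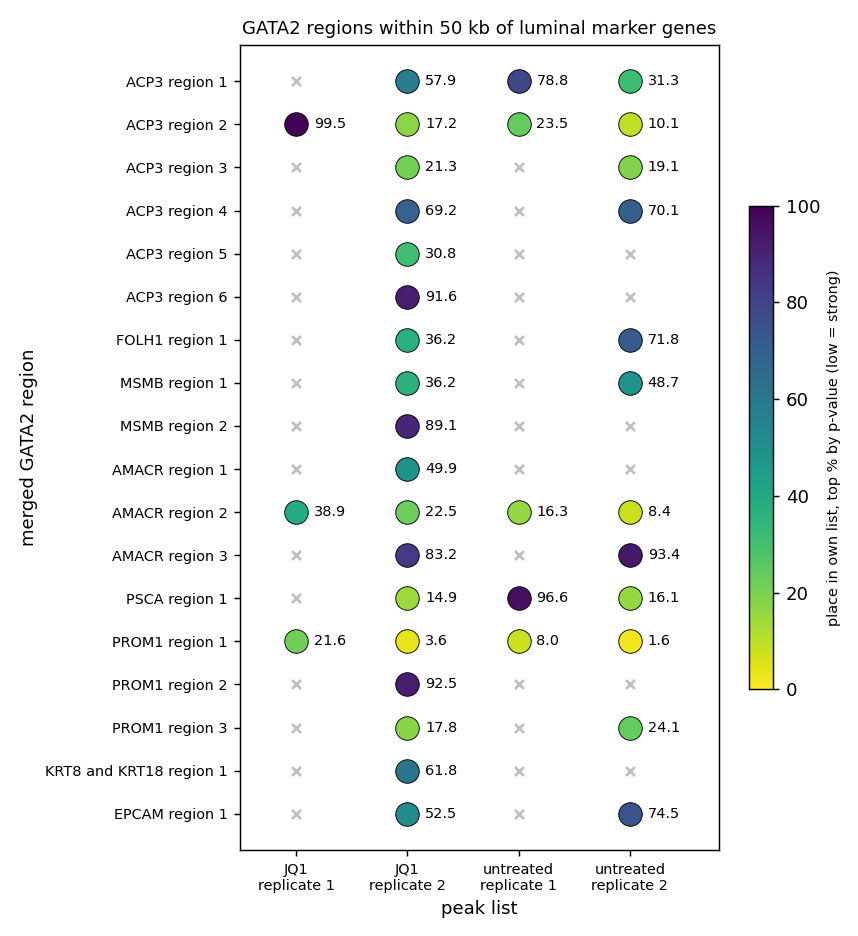
GATA2 regions within 50 kb of the 9 luminal marker genes (rows, numbered along the chromosome within each gene) in the 4 peak lists (columns). A dot marks a peak, with its place in its own list as the top percentage by p-value printed beside it and shown by colour, and a cross marks no peak. Every row has a dot in JQ1 replicate 2, and 3 rows have a dot in all 4 lists.

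Recurrent binding was found at ACP3, AMACR and PROM1 with both treatments. These 3 genes of 9 had a region in both JQ1 lists, where 17.8% of all genes had one. In the untreated lists PSCA joined them, giving 4 of 9 genes where 24.3% of all genes had one. A region common to all 4 lists occurred at the same 3 genes, against 13.6% of all genes. A region found in both JQ1 replicates but in no untreated list occurred at 0 of 9 members and at 0.719% of all genes, and the opposite case at 0 of 9 members and at 1.24% of all genes. With 9 genes these counts are a description, and with the lists cut to equal length 1 member had a region in both JQ1 lists and 3 in both untreated lists. The counts for both JQ1, both untreated and all 4 lists were 2, 3 and 2 at a q of 1e-05 or less. They were also 2, 3 and 2 within 10 kb, and 4, 5 and 4 within 100 kb. The shares of all genes above hold for the full lists within 50 kb only. The counts at equal length, the stricter q and the other windows therefore cannot be set against them. ACP3 counted as recurrent with JQ1 through a replicate 1 peak with a −log10 q of 1.37, close to the caller's limit.

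The number of peaks near the 9 genes did not separate the treatments. There were 3 and 19 such peaks in the JQ1 lists and 5 and 12 in the untreated lists, or 11.0 ± 11.3 with JQ1 and 8.50 ± 4.95 untreated (SD, n = 2 each). The log2 ratio of JQ1 over untreated, taken as the difference of the mean log2 numbers and so opposite in sign to that of the plain means, was −0.04 (two-sided exact permutation test, p = 1, where 0.3333 is the smallest p that 2 lists against 2 can give). Per 1000 peaks of the list, the numbers were 0.603 and 0.586 with JQ1 and 0.724 and 0.438 untreated, a difference of 0.0133 (exact permutation p = 1). The JQ1 list had the smaller number in replicate 1 and the larger in replicate 2, so the log2 ratio was −0.74 in replicate 1 alone and 0.66 in replicate 2 alone. It was 1.29 without JQ1 replicate 1, −1.37 without JQ1 replicate 2, −0.67 without untreated replicate 1 and 0.59 without untreated replicate 2.

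Among the secreted proteins, ACP3 had the most regions of the 9 genes. ACP3 (NCBI gene 55, chromosome 3, 132317407 to 132368302) codes for prostatic acid phosphatase, an enzyme that luminal cells release in quantity and that was an early blood marker of prostate cancer. It had 6 regions, a number that 7.97% of all protein-coding genes reached or passed. Of these, 3 lay upstream, 2 inside the gene and 1 downstream, and the last was nearer to DNAJC13, 11.8 kb away.

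The recurrent ACP3 region lay 43.7 kb upstream, at 132273477 to 132273985. It had 7 fragments over the summit against a background of 1.13 in JQ1 replicate 1 and 38 against 1.56 in JQ1 replicate 2. The untreated lists had 23 fragments against 1.25 in replicate 1 and 76 against 1.96 in replicate 2. All of these backgrounds were at the floor of their lists. The peak of JQ1 replicate 1 was among the weakest of its list, at the top 99.5% by p-value, and the 95% Poisson interval of its 7 fragments ran from 2.81 to 14.4 (counting error only). In the other lists the region stood at the top 17.2% in JQ1 replicate 2, 23.5% in untreated replicate 1 and 10.1% in untreated replicate 2.

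A second upstream region of ACP3, 49.8 kb away and so just inside the 50 kb limit, was found in both untreated lists and in JQ1 replicate 2. JQ1 replicate 2 had 23 fragments over its summit against a background of 3.26, while untreated replicate 1 had 22 against 4.65 and untreated replicate 2 had 61 against 5.83. The next peak outward, at 50.1 kb, belonged to JQ1 replicate 2 alone and fell outside. The third upstream region, 31.7 kb away, had 53 fragments in JQ1 replicate 2 and 72 in untreated replicate 2 and no peak in the replicate 1 lists. The region just past the ACP3 start, at 132317512 to 132317768, had 24 fragments against 4.62 in JQ1 replicate 2 and 37 against 6.87 in untreated replicate 2. It was a weak peak in both, at the top 69.2% and 70.1% of these lists. The other intragenic region, 9.52 kb past the start, had 33 fragments in JQ1 replicate 2 alone.

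MSMB, which codes for beta-microseminoprotein, a small secreted protein of seminal fluid, had peaks in the replicate 2 lists only. MSMB (NCBI gene 4477, chromosome 10, 46033313 to 46046269) had a region 18.1 kb from its span, at 46064288 to 46064636, with 24 fragments against 1.56 in JQ1 replicate 2 and 33 against 2.64 in untreated replicate 2. A second region, 37.8 kb away, had 11 fragments in JQ1 replicate 2 alone and a −log10 q of 4.22. No MSMB region lay inside the gene.

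**Figure D2:**
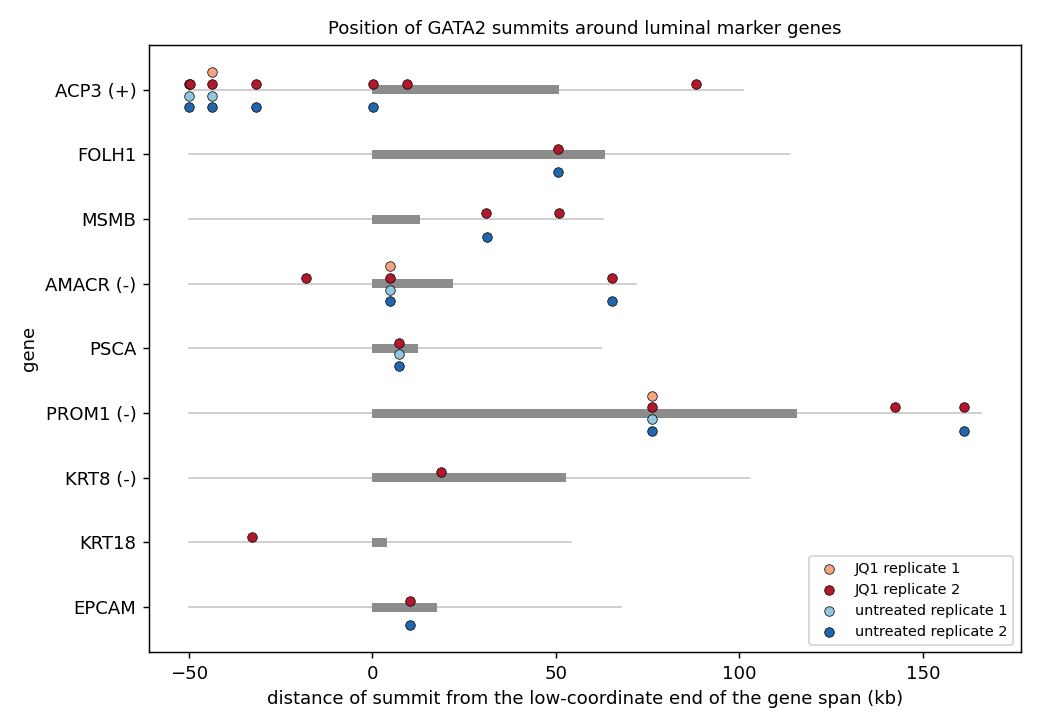
Position of each GATA2 summit (dots, coloured by list) relative to the low-coordinate end of the gene span, in kb, for the 9 genes. Grey bars are gene spans, thin lines the 50 kb windows, and a sign in brackets the strand where the RefSeq promoter table gives it. Only ACP3, AMACR and PROM1 have a column of 4 dots, and ACP3 has summits upstream of, inside and downstream of its span.

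Of the surface antigens, PROM1 had the strongest GATA2 region of the whole group. PROM1 (NCBI gene 8842, chromosome 4, 15968228 to 16084023) codes for prominin 1, or CD133, a membrane glycoprotein of cell protrusions that is used to mark progenitor-like cells. Its region at 16044203 to 16044543 inside the gene had 25 fragments against a background of 2.03 in JQ1 replicate 1 and 75 against 1.77 in JQ1 replicate 2. The untreated lists had 37 fragments against 1.48 in replicate 1 and 151 against 2.77 in replicate 2. By p-value the peak was in the top 21.6% of JQ1 replicate 1, 3.58% of JQ1 replicate 2, 7.97% of untreated replicate 1 and 1.60% of untreated replicate 2. Its summits lay within 25 bp of each other in the 4 lists. A further region 45.5 kb upstream, nearer to TAPT1, had 43 fragments in JQ1 replicate 2 and 64 in untreated replicate 2, and one 26.6 kb upstream had 11 in JQ1 replicate 2 alone.

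PSCA had a single region inside the gene that was strong in both long lists and near the limit in a short one. PSCA (NCBI gene 8000, chromosome 8, 142670297 to 142682725) codes for prostate stem cell antigen, a lipid-anchored surface protein. JQ1 replicate 2 had 41 fragments over the summit against 1.56, and JQ1 replicate 1 had no peak. Untreated replicate 1 had 19 fragments against a background of 5.43, with a −log10 q of 2.63 that put it at the top 96.6% of its list, and untreated replicate 2 had 69 against 2.91. The region stood at the top 14.9% of JQ1 replicate 2 and 16.1% of untreated replicate 2. PSCA therefore counted as recurrent in the untreated lists through a peak close to the caller's limit.

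FOLH1 and EPCAM each had a single region, inside the gene and in the replicate 2 lists only. FOLH1 (NCBI gene 2346, chromosome 11, 49145092 to 49208602) codes for prostate-specific membrane antigen, the surface peptidase targeted by prostate cancer imaging. Its region at 49195607 to 49195819 had 24 fragments against 1.56 in JQ1 replicate 2 and 21 against 1.96 in untreated replicate 2. FOLH1 has a near-identical pseudogene, FOLH1B, and how reads matching both were placed is not known here. FOLH1B had 0 peaks within 50 kb in each of the 4 lists. EPCAM (NCBI gene 4072, chromosome 2, 47369311 to 47387020) codes for the epithelial cell adhesion molecule used to capture circulating tumour cells, and its region had 23 fragments against 2.77 in JQ1 replicate 2 and 29 against 4.37 in untreated replicate 2. By p-value FOLH1 stood at the top 36.2% with JQ1 and 71.8% untreated, and EPCAM at 52.5% with JQ1 and 74.5% untreated.

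AMACR, which codes for alpha-methylacyl-CoA racemase, an enzyme of branched-chain fatty acid oxidation that pathologists stain for in prostate cancer, had 1 recurrent region inside the gene. AMACR (NCBI gene 23600) spans 33986165 to 34008050 on chromosome 5, and the region lay at 33990793 to 33991237, 17.1 kb past the start. It had 18 fragments against 1.52 in JQ1 replicate 1 and 44 against 3.70 in JQ1 replicate 2. The untreated lists had 43 against 4.65 in replicate 1 and 96 against 3.32 in replicate 2. The other AMACR regions lay within neighbouring genes, 1 inside SLC45A2 with 19 fragments in JQ1 replicate 2 alone and 1 inside C1QTNF3 with 14 in JQ1 replicate 2 and 17 in untreated replicate 2.

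The luminal keratin genes had the fewest GATA2 peaks of the group. KRT8 (NCBI gene 3856) and KRT18 (NCBI gene 3875) code for the paired intermediate filament proteins of simple epithelia and lie next to each other on chromosome 12, KRT8 at 52897191 to 52949860 and KRT18 at 52948855 to 52952906. They shared a region at 52915923 to 52916115, inside the KRT8 span and 32.8 kb from KRT18. It had 16 fragments against 1.56 in JQ1 replicate 2, a −log10 q of 8.92 and a place at the top 61.8% of that list. No other list had a peak there, so neither keratin gene had a recurrent region in either group.

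**Figure D3:**
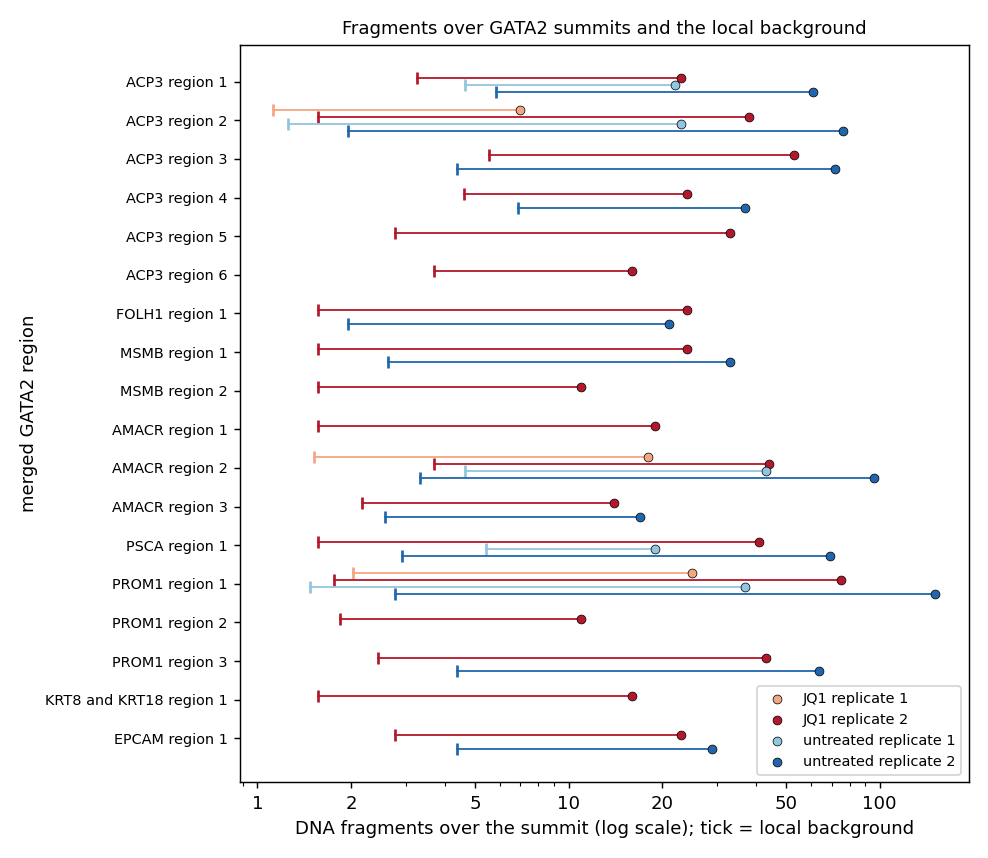
DNA fragments over the summit (dots) and local background or the floor of the list (ticks), on a log scale, for each region and list, recovered from the deposited fold enrichment and p-value. PROM1 region 1 reaches 75 fragments in JQ1 replicate 2 and 151 in untreated replicate 2, and the weakest dot, ACP3 region 2 in JQ1 replicate 1, stands at 7.

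Most of the other regions came from the long lists alone. JQ1 replicate 2 alone held 6 of the 18 regions, with a −log10 q of 3.50 to 21.3 and places from the top 30.8% to the top 92.5% of that list. Both replicate 2 lists and no other held 7, with places from the top 17.8% to 83.2% in JQ1 replicate 2 and from 19.1% to 93.4% in untreated replicate 2. The genome shares of these patterns were not computed, so the counts do not set the members apart from other regions. The 12 regions present in more than 1 list had summits a median of 19.5 bp apart and at most 214 bp apart. Of the 18 regions, 8 lay inside a member's span, and 4 had another gene nearer than the member.

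The 3 regions found in all 4 lists ranked lower with JQ1 when lists with the same replicate number were compared. Since lists of unequal length give ranks that cannot be compared, each region was ranked among the 3236 regions of the genome that all 4 lists share, where a low percentage is strong. This ranking was chosen after the data were seen. PROM1 stood at 30.9% and 29.0% in the JQ1 lists and at 16.4% and 12.9% in the untreated lists, so that the groups did not overlap. ACP3 stood at 99.8% and 78.1% with JQ1 and at 42.5% and 58.9% untreated, again without overlap. AMACR stood at 52.1% and 85.2% with JQ1 and at 31.5% and 52.3% untreated, and here the groups overlapped by a narrow margin.

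In all, the JQ1 value was the weaker in 6 of 6 comparisons between lists with the same replicate number, a pairing that the labels do not state and that the tags in the peak names do not settle. The 6 comparisons are 3 regions read in the same lists, so they are not 6 repeats of the treatment. For AMACR this order depends on the pairing, since JQ1 replicate 1 at 52.1% stood just above untreated replicate 2 at 52.3%. Of the 3236 shared regions, 28.3% were weaker with JQ1 in both replicates, 27.2% were stronger in both, and 17.6% were weaker in both JQ1 lists than in either untreated list, as 2 of the 3 were here. By the authors' fold enrichment, all 3 were likewise lower with JQ1 in both replicates, as were 37.7% of the shared regions.

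The mean rank difference was 15.3 percentage points for PROM1 (29.9 ± 1.35 with JQ1, 14.6 ± 2.45 untreated, SD, n = 2 each, exact permutation p = 0.3333). For ACP3 it was 38.3 points (89.0 ± 15.4 with JQ1, 50.7 ± 11.6 untreated, SD, n = 2 each, exact permutation p = 0.3333). For AMACR it was 26.8 points (68.6 ± 23.3 with JQ1, 41.9 ± 14.7 untreated, SD, n = 2 each, exact permutation p = 0.667). A p of 0.3333 is the smallest this design allows, so none could reach 0.05. The median of the 3 regions was 52.1% and 78.1% with JQ1 and 31.5% and 52.3% untreated, a difference of 23.3 points (exact permutation p = 0.667). Ranked within each whole list, the median was 38.9% and 17.2% with JQ1 and 16.3% and 8.42% untreated, a difference of 15.7 points (exact permutation p = 0.3333), a value into which the lengths of the lists also enter. That difference was 0.435 points without JQ1 replicate 1, when a PSCA region and a second ACP3 region entered the set.

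**Figure D4:**
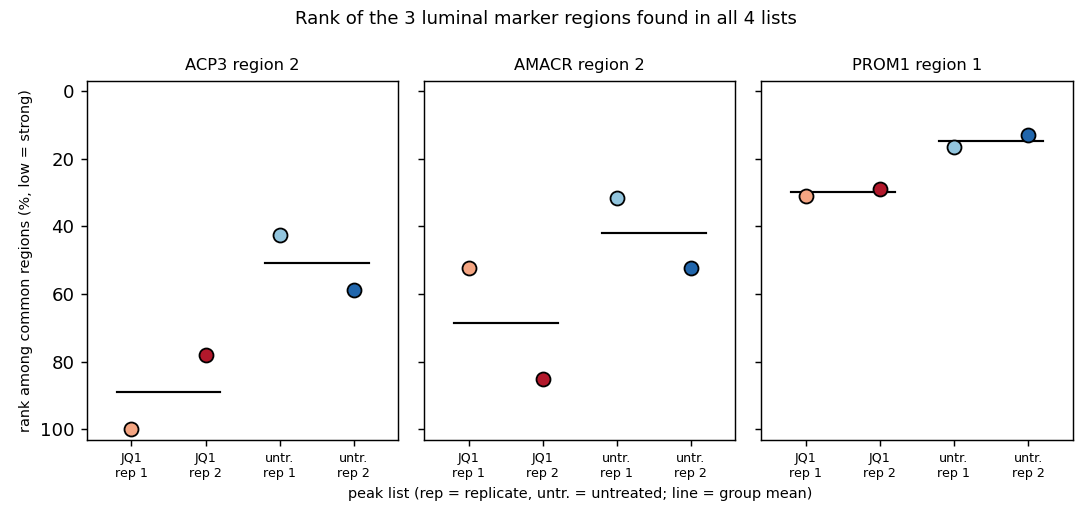
Rank of the 3 regions found in all 4 lists (panels) among the 3236 regions that the lists share, in percent with strong at the top, in each list (dots) with the mean of each group (lines). The JQ1 dot lies below the untreated dot of the same replicate in every panel, and the groups overlap only for AMACR.

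Over all members the lower rank with JQ1 did not hold for every gene. Ranked among the 21173 regions that both replicate 2 lists share, 7 of the 12 member regions were weaker with JQ1 and 5 were stronger, where 51.1% of all such regions were weaker. ACP3 was weaker at 4 of its 4 regions, the largest gap being at the region 49.8 kb upstream, at 74.6% with JQ1 and 39.2% untreated. FOLH1 stood at 51.6% with JQ1 and 81.3% untreated, EPCAM at 69.6% with JQ1 and 83.6% untreated, and MSMB at 51.6% with JQ1 and 59.3% untreated, so these 3 ranked higher with JQ1. So did the PROM1 region 45.5 kb upstream, at 26.6% with JQ1 and 30.4% untreated. The AMACR region inside C1QTNF3 did too, at 92.7% with JQ1 and 96.7% untreated. The recurrent regions of PROM1 and AMACR ranked lower with JQ1. PSCA was close in both lists, at 22.2% with JQ1 and 20.5% untreated. A single list stands on each side of these values, so they carry no replicate error.

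A wider list of 32 other luminal genes, drawn up with earlier results of these data known, gave shares between those of the 9 genes and of all genes. A region in both JQ1 lists occurred at 9 of the 32 and one in both untreated lists at 14. A region in all 4 lists occurred at 7, namely ANPEP, KLK2, KLK3, KLK4, STEAP2, TMPRSS2 and TSPAN8. Where a gene had more than 1 such region, only the best-ranked is given, and it need not stand for the gene. KLK2, KLK3 and KLK4 are neighbouring genes of secreted proteases. KLK2 and KLK3 each had 3 regions in all 4 lists and shared their best. It ranked at 3.65% and 4.17% with JQ1 and at 1.92% and 1.64% untreated among the common regions. The best KLK4 region stood at 10.2% and 8.58% with JQ1 and at 4.67% and 3.24% untreated. It lay 36.7 kb from KLK4 and also within 50 kb of KLK2 and KLK3, so these 3 genes are not separate entries. ANPEP, which codes for the surface peptidase aminopeptidase N, ranked at 8.36% and 9.61% with JQ1 and at 12.6% and 24.2% untreated. TMPRSS2, which codes for a surface serine protease, had 3 regions in all 4 lists. The best stood at 42.7% and 32.1% with JQ1 and at 57.1% and 40.6% untreated. TSPAN8, a tetraspanin gene, stood at 46.4% and 52.2% with JQ1 and at 62.2% and 71.7% untreated. By replicate number, the best regions of KLK2, KLK3 and KLK4 were thus weaker with JQ1 in both replicates, and those of ANPEP, TMPRSS2 and TSPAN8 were stronger in both. STEAP2, a metalloreductase gene, had a region inside its span at 17.0% and 8.81% with JQ1 and at 5.90% and 10.1% untreated, so it was weaker with JQ1 in replicate 1 and stronger in replicate 2.

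Of 24 basal epithelial genes, 5 had a region in both JQ1 lists, 7 in both untreated lists and 3 in all 4. These are 20.8%, 29.2% and 12.5% of the basal genes, close to the 17.8%, 24.3% and 13.6% of all protein-coding genes. The 3 were CD44, LAMA3 and TP63, which code for a hyaluronan receptor, a laminin chain and the basal transcription factor p63. TP63 and LAMA3 each had 2 regions in all 4 lists. Only the best-ranked of each is given, and it need not stand for the gene. The best TP63 region stood at 1.85% and 1.21% with JQ1 and at 7.66% and 10.8% untreated among the common regions, stronger with JQ1 in both replicates. The best LAMA3 region stood at 92.3% and 49.1% with JQ1 and at 32.7% and 24.8% untreated, weaker with JQ1 in both. CD44 was near the bottom in each list, at 93.3% and 99.88% with JQ1 and at 89.5% and 99.97% untreated, weaker in replicate 1 and stronger by a small margin in replicate 2. The counts at the 9 luminal markers, 3 of 9 in all 4 lists, and at the basal genes, 3 of 24, were not tested against each other. The 3 members include PROM1 and AMACR, which are not specific to the luminal cell.

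**Figure D5:**
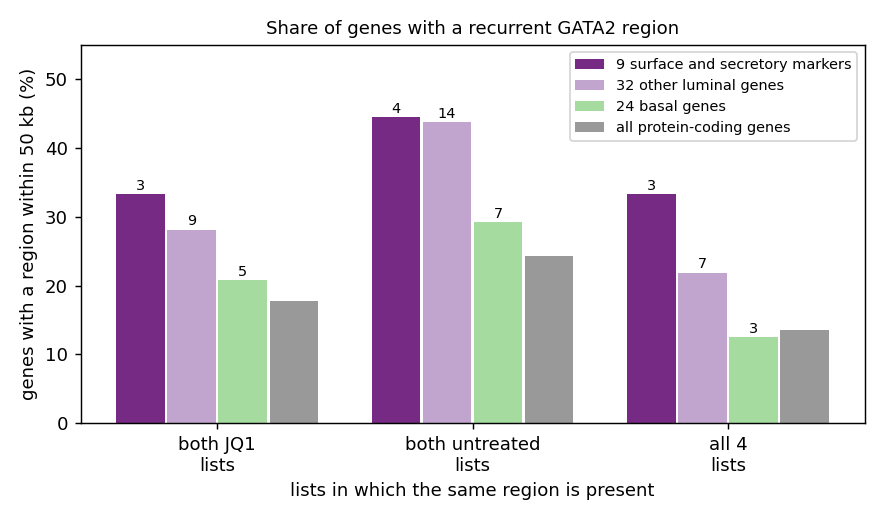
Percentage of genes with the same GATA2 region in both JQ1 lists, both untreated lists or all 4 lists within 50 kb, for the 9 markers, the 32 other luminal genes, the 24 basal genes and all protein-coding genes, with the number of genes above the bars of the 3 lists. The 9 markers stand at 3, 4 and 3 genes.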

How the data were processed

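The 4 GATA2 precipitates of VCaP cells, 2 with JQ1 and 2 untreated, have a peak list each, and the 4 input samples were not used here. The submitters' processing notes name Bowtie2, Picard, MACS2 and the build hg38, with no versions. Each list belongs to 1 sample per the labels, so peaks were called per sample, and the peak names carry a q limit of 0.05, though the tag of 1 list is written differently. The weakest q of any list was 0.0495, in JQ1 replicate 1. The authors' fold enrichment is a linear ratio with a pseudocount of 1, and the deposited −log10 p-values and q-values are those of the same summit. The deposited score restates the −log10 q and was not used. Peaks on contigs and the mitochondrial genome, 18 lines, were left out.

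Whole pile-ups were solved from fold and p, which met the deposited −log10 p within 0.001 for at least 99.997% of the peaks of each list, after scaling by 0.686 in untreated replicate 2. Total read depth is not in the lists, so a missing peak means below the calling limit at that depth. Genes and promoters were taken from RefSeq tables of GRCh38.p14, and all 65 list entries were matched by symbol. Distances were measured from summits to gene spans. The text names all 9 members with their regions and the genes of 2 further lists with a region in all 4 peak lists. The members and lists were chosen with earlier results of these data known. Groups were compared by two-sided exact permutation over lists. The alternatives were windows of 10 and 100 kb, a q of 1e-05 or less, lists of equal length (4974 peaks), a 50% reciprocal overlap, nearest-gene assignment, left-out lists and a replicate block. Python 3.11.15, numpy 2.4.6, pandas 2.3.3 and scipy 1.17.1 were used, and the steps were tested on simulated data.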

Additional observations from a re-analysis of the deposited data

How the results depend on the processing

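The number of members with a region in both JQ1 lists was 1 with lists of equal length. With single lists or replicates left out, a region had to be in every list that remained, which can be 1 list of a group. The JQ1 count then ran from 3 to 9, the untreated count from 4 to 7 and the count in all remaining lists from 3 to 7. The last was 1 at equal length, and the equal-length counts have no share of all genes beside them. The 9 came without JQ1 replicate 1 and gives the members with a peak in the JQ1 list left, replicate 2 (58.2% of all genes). The untreated 7 came without untreated replicate 1 and gives the members with a peak in untreated replicate 2 (54.6% of all genes). Neither is a count of recurrence. The 7 in all lists came when replicate 1 of both groups was left out, against 4 without JQ1 replicate 1 alone. The log2 ratio of peaks near members was 0.13 within 100 kb and ran from −1.37 to 1.29 with single lists left out, with 0.66 in replicate 2 alone. The difference in peaks per 1000 was −0.00244 within 10 kb, −0.0332 at a q of 1e-05 or less, −0.0119 for peaks nearest to a member and −0.201 at equal length, and ran from −0.130 to 0.156 with single lists left out, with −0.121 in replicate 1 alone. The cause of these sign changes was not tested. The median rank of the regions in all lists was weaker with JQ1 under each alternative run, by 0.435 to 26.6 points with lists left out. In replicate 2 alone the difference was 1.68 points. Most of these are ranks within whole lists, into which list length enters. Nearest-gene assignment and the 50% reciprocal overlap gave the same 15.7 points. The shared sign is therefore not a set of independent checks. With the replicate number as a block, which can give no p below 0.5, the differences were the same −0.04, 0.0133 and 15.7, with an exact permutation p of 1, 1 and 0.5. Same-numbered lists deviated together over the 3236 shared regions (r = 0.39, a description over regions), but with 2 pairs and no label this does not show that they were paired. The weakest peak near a member, in JQ1 replicate 1, rested on 7 fragments. Total read depth is not in the lists, so its part in the shorter replicate 1 lists was not tested.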

Other observations

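Beyond the 50 kb limit, between 50 and 100 kb from the span, ACP3 and KRT8 each had a further region present in all 4 lists. These distances were looked at after the main results were seen. The ACP3 region, 98.2 kb from the span at 132218772 to 132219482 on chromosome 3 with ACP3 as its nearest protein-coding gene, had 33 fragments over the summit against a background of 2.70 in JQ1 replicate 1 and 131 against 2.58 in JQ1 replicate 2. Untreated replicate 1 had 46 against 4.65 and untreated replicate 2 had 184 against 3.54. It was stronger than any region within 50 kb of ACP3 in each of the 4 lists by p-value. Among the 3236 regions that all lists share it ranked at 18.5% and 4.45% with JQ1 and at 26.5% and 5.87% untreated, so that its rank was higher with JQ1 in both replicates, opposite to the ACP3 region at 43.7 kb. No test of this difference was run.

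The KRT8 region lay 96.2 kb from the span at 52800839 to 52801188 on chromosome 12, 4.88 kb from KRT3, a keratin gene of the cornea. It had 18 fragments against 3.38 in JQ1 replicate 1 and 68 against 1.85 in JQ1 replicate 2, with 35 against 2.33 in untreated replicate 1 and 112 against 3.96 in untreated replicate 2. EPCAM had a region 59.3 kb away with 32 fragments in JQ1 replicate 2 alone, and AMACR and PSCA had regions in the long lists only.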
